A study of Mus musculus with 75 samples.

Results

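The MHC genes of the mouse are named H2, and their proteins present peptides to T cells. All rows of the count table whose gene symbol begins with H2- were taken, which gave 45 genes of 55536. Of these, 32 were class I genes or their relatives, 12 were class II genes, and H2-Ke6, a steroid dehydrogenase gene of the same region, belonged to neither class. The libraries were made from total RNA of livers of male C57Bl/6 mice. Exposed mice were born to dams whose drinking water held the organotin tributyltin (TBT) until weaning, at 3.07 µM, stated as a daily dose of 0.5 mg per kg, and the other mice are labelled vehicle. At 3 weeks the groups were vehicle (8 libraries, 7 samples) and TBT (8 samples). At 5 months they were vehicle (8 samples), TBT low-risk (16 samples) and TBT high-risk (10 samples). At 10 months they were vehicle (6 samples), TBT low-risk (5 samples), high-risk TBT uninvolved liver (6 libraries, 5 samples) and TBT tumor (7 samples), and 1 vehicle library labelled as tumor entered no comparison. How livers were sorted into risk groups at 5 months is not stated in the labels. They number the samples without stating that each is a separate litter or animal, so p-values measure the spread between these samples.

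Class I heavy chains pair with beta-2-microglobulin and carry peptides from proteins made inside the cell; H2-K1 and H2-D1 are the classical class Ia genes, and the Q, T and M genes are mostly nonclassical class Ib genes. H2-Q10 encodes a secreted class Ib chain made mainly by the liver. Class II molecules are pairs of an alpha and a beta chain (H2-Aa with H2-Ab1; H2-Eb1 and H2-Eb2 are beta chains of the E molecule, whose alpha gene is defective in C57Bl/6 mice), found mainly on dendritic cells, macrophages and B cells. They load peptides with the help of H2-DM, which H2-O restrains, and of the invariant chain Cd74, and their transcription depends on the coactivator Ciita, whose class I counterpart is Nlrc5.

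Promoter windows from RefSeq (GRCm38.p6, 250 bases before to 50 bases after an annotated start) are shown for the 3 class II genes that have both a named level and the inverted CCAAT box, because these genes moved together in the data. They are H2-Aa (chr17:34287774-34288073, minus strand), H2-Eb1 (chr17:34305617-34305916, plus strand) and H2-DMb1 (chr17:34152941-34153240, plus strand). H2-Ab1, which moved with them, has no window in this set, so its promoter was not read. H2-DMa was not among the genes found with the inverted CCAAT box. Capitals mark the inverted CCAAT or Y box core TGATTGG and the X box core AACNGATG.
H2-Aa: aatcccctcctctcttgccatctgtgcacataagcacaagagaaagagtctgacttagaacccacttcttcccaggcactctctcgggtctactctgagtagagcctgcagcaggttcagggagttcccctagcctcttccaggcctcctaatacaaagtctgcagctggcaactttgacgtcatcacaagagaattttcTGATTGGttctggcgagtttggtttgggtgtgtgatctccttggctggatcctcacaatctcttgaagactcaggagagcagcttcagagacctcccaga
H2-Eb1: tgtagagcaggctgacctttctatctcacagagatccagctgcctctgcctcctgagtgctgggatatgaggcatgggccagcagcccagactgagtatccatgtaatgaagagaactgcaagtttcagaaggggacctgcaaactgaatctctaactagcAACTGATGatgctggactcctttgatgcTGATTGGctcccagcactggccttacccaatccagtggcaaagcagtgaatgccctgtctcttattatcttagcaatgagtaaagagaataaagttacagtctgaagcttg
H2-DMb1: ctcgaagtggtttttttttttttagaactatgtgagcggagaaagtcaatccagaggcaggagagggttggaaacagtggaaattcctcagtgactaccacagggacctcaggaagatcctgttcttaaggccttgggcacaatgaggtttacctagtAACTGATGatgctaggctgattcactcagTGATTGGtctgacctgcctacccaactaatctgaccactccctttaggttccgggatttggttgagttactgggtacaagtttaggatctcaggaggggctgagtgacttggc
Read on both strands, TGATTGG stood in 7 of 8 class II genes that have a window, in 16 of 23 such class I genes and in 7.82% of all 32851 promoter windows. The X box core stood in 4 of 8 class II genes (H2-DMb1, H2-DMb2, H2-Eb1 and H2-Eb2), in 1 of 23 class I genes and in 2.32% of all windows. In these 4 class II genes the X box core came first: the cores began 89 and 61 bases before the start in H2-Eb1, 92 and 63 in H2-DMb1, 121 and 92 in H2-DMb2, and 130 and 102 in H2-Eb2.

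For class I, windows are shown for the 2 class Ia genes and for H2-Q10 and H2-Q7, since H2-K1 and H2-Q7 were called lower in several comparisons and H2-D1 in none. They are H2-K1 (chr17:34000298-34000597, minus strand, the first of its windows), H2-D1 (chr17:35262844-35263143, plus strand), H2-Q10 (chr17:35469839-35470138, plus strand) and H2-Q7 (chr17:35438905-35439204, plus strand). Capitals mark the kappa B palindrome, or the stretch of H2-Q10 and H2-Q7 most like it, and CCAATCA, which is TGATTGG read on the other strand.
H2-K1: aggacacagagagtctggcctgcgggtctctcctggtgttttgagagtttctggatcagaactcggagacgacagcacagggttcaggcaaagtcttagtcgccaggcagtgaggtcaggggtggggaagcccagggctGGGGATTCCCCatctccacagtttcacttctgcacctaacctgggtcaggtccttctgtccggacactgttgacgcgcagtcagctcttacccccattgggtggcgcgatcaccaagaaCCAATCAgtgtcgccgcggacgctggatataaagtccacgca
H2-D1: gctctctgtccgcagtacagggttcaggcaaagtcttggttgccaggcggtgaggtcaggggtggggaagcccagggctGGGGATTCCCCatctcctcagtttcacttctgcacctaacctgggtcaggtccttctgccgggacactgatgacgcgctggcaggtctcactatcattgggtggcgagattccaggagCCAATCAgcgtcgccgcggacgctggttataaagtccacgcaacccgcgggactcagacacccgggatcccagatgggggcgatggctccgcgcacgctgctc
H2-Q10: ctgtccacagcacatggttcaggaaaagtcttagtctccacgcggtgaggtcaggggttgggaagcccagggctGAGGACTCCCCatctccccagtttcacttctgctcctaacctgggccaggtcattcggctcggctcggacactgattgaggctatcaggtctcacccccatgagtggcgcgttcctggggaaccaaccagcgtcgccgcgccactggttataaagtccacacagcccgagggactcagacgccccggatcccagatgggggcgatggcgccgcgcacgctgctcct
H2-Q7: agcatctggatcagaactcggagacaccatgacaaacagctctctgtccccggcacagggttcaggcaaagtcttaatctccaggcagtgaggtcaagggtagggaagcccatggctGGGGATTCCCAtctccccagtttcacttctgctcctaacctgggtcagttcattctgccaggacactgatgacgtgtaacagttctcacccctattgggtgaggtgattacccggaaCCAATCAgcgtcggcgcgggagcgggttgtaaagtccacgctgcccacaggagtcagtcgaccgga
Read on both strands, the palindrome occurred in 10 of 32851 windows (0.0304%), among them windows of 3 class I genes, H2-K1, H2-D1 and H2-Q6. Counted from 1 at the palindrome's 5′ end, the H2-Q10 stretch differed by G2A and T6C and the H2-Q7 stretch by C11A. The H2-Q10 window held no TGATTGG on either strand. These matches describe letters in a window and say nothing of binding.

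Levels were compared between genes per kb of exon in the 10-month vehicle livers (mean ± SD, n = 6), in CPM, counts scaled to a common library size with TMM factors. H2-Q10 was highest at 493.5 ± 29.7 CPM per kb. H2-K1 followed at 399.1 ± 19.5 and H2-D1 at 212.3 ± 10.3 CPM per kb, and these 3 ranges did not overlap. The nonclassical H2-T23, which encodes the Qa-1 molecule, stood at 67.4 ± 6.84 and H2-T22 at 19 ± 1.30 CPM per kb. Class II chains were far lower: H2-Eb1 at 11.2 ± 1.18, H2-Ab1 at 10.9 ± 1.45 and H2-Aa at 8.96 ± 1.17 CPM per kb, levels that overlapped one another. The peptide editor genes H2-DMb1 and H2-DMa stood at 1.46 ± 0.22 and 0.99 ± 0.08 CPM per kb. Of the 45 genes, 15 reached a mean of 5 CPM in at least 1 group, 10 of class I and 5 of class II. Among the rest, H2-Pa had no count in any library, H2-Pb had 4 counts and the defective alpha gene H2-Ea-ps 29 counts over all libraries.

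Library totals ran from 2.83 to 45.5 M counts. The library of 5-month vehicle 9, the shallowest, had the lowest summed class I level of all samples (830.5 CPM) and stood apart, as did 5-month low-risk 16, 5-month high-risk 10 and 15 and the vehicle library labelled tumor, by total, genes detected or mitochondrial share. TBT 4 of 3 weeks had 312.6 CPM of Xist and low-risk 24 of 5 months 96.9 CPM although both are labelled male, and the next highest sample had 7.44 CPM. Hepatocyte markers, read as a check of the labelled tissue, summed to between 39730 and 199400 CPM in every sample. Several class I genes share exact stretches of sequence: of the 75-base stretches in their transcripts, 18.5% in H2-T22, 17.9% in H2-Q6, 17% in H2-Q7, 12.5% in H2-Q10 and 10.9% in H2-Q1 also occur in other genes, against 3.1% in H2-K1, 5.4% in H2-D1 and 0 in H2-Aa, H2-Ab1, H2-Eb1 and H2-DMa. Reads of the former genes could be split between copies, so their values are uncertain, as are those of H2-DMb1 (15.8%, shared with H2-DMb2). H2-T22, H2-Q4 and H2-DMa also overlap antisense genes, and the strand setting of the counting is not given in the sources used here.

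At 5 months, class II genes were higher in TBT livers labelled high-risk than in those labelled low-risk. H2-Aa, the A alpha chain, ranged from 15.3 to 54.9 CPM in low-risk livers (median 29.8, n = 16) and from 35.4 to 112.3 CPM in high-risk livers (median 89.6, n = 10). In 8 of 10 high-risk livers it exceeded the highest low-risk value, and high-risk 1 and 22 lay within the low-risk range. The difference was 1.49 ± 0.20 on the log2 scale (SE; edgeR quasi-likelihood test, adjusted p = 6.88e-07). Its partner H2-Ab1 ranged from 12.5 to 52.8 CPM (median 30.3) in low-risk and from 24.3 to 118.2 CPM (median 86.5) in high-risk livers, a log2 difference of 1.38 ± 0.23 (edgeR adjusted p = 1.27e-05). The E beta chain H2-Eb1 ranged from 10.7 to 39.1 CPM (median 21.3) against 19.6 to 80.4 CPM (median 62.3), a difference of 1.48 ± 0.23 (edgeR adjusted p = 7.72e-06). The same high-risk samples, 1 and 22, were among the low ones for all 3 chains, together with high-risk 15 for H2-Ab1 and H2-Eb1.

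The peptide editor subunits were lower in level and rose as well. H2-DMa had a median of 3.93 CPM in low-risk (2.07 to 7.45) and 7.72 CPM in high-risk livers (3.36 to 10.5), a log2 difference of 0.83 ± 0.22 (edgeR adjusted p = 0.00279). H2-DMb1 had medians of 2.85 (0.54 to 5.28) and 6.35 CPM (1.80 to 8.72), a difference of 1.01 ± 0.24 (edgeR adjusted p = 0.00123). In all, 8 of the 8 class II genes tested were called higher, against 20.3% of all 14773 genes tested, and their median log2 difference was 1.23 against -0.01 for all genes. The other 3 called were H2-Oa (2.72), H2-DMb2 (1.09) and H2-Ob (1.09), each under 5 CPM and named after their values were seen. None of the 8 was without overlap between the groups, as 1.64% of all genes were. All of these are bulk values, in which more cells of a type and more RNA per cell cannot be told apart.

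**Figure D1:**
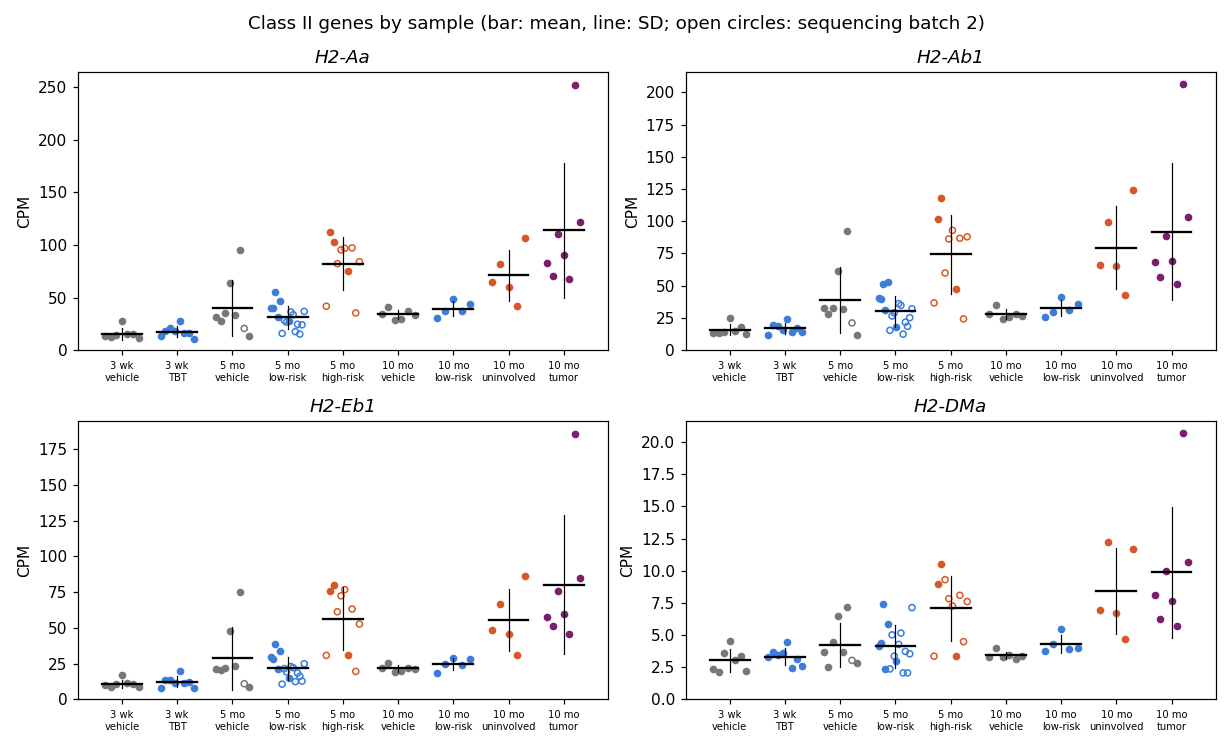
CPM of H2-Aa, H2-Ab1, H2-Eb1 and H2-DMa in each sample of 9 groups. Points are samples (open circles: sequencing batch 2), bars are means and vertical lines SDs. For H2-Aa the 5-month high-risk mean is 82.3 CPM against 31.3 CPM in low-risk livers, and tumor 11 stands alone at 252.1 CPM.

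In the same comparison some class I genes were called higher and others lower, in each direction at less than the share of all genes. H2-K1, a classical class Ia gene, ranged from 641.4 to 1648 CPM in low-risk livers (median 1105) and from 374.2 to 1099 CPM in high-risk livers (median 647.4), so that the highest high-risk value lay just under the low-risk median. It fell by 0.63 ± 0.16 on the log2 scale (edgeR adjusted p = 0.00262). The other class Ia gene, H2-D1, had medians of 491.1 (361.9 to 688.9) and 552.0 CPM (298.1 to 737.4), with a log2 difference of 0.11 ± 0.14 (edgeR adjusted p = 0.554). H2-Q7, which encodes a Qa-2 antigen chain, ranged from 24.1 to 56.4 CPM (median 40.8) in low-risk and from 11.9 to 33.8 CPM (median 18.6) in high-risk livers. It fell by 1.02 ± 0.16 (edgeR adjusted p = 5.88e-06), and the ranges overlapped between 24.1 and 33.8 CPM. The liver's secreted chain H2-Q10 had medians of 1752 (1065 to 2273) and 1658 CPM (772.4 to 2362), a difference of -0.11 ± 0.16 (edgeR adjusted p = 0.617). H2-Q1 had medians of 12.5 (8.60 to 38.9) and 29.7 CPM (5.66 to 43.7) and rose by 0.80 ± 0.24 (edgeR adjusted p = 0.00942; 0.0553 with no filter on low counts).

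Of 18 class I genes tested, 3 were called higher and 2 lower, both under the shares of all genes (20.3% and 18.5%). The class I median was -0.10. The other 2 that rose were H2-M2 (2.72 on the log2 scale; 0 to 1.20 CPM in low-risk and 0.97 to 3.28 CPM in high-risk livers) and the pseudogene H2-T-ps (1.75), both named after their values were seen; H2-T-ps shares exon sequence with Gm7030.

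**Figure D2:**
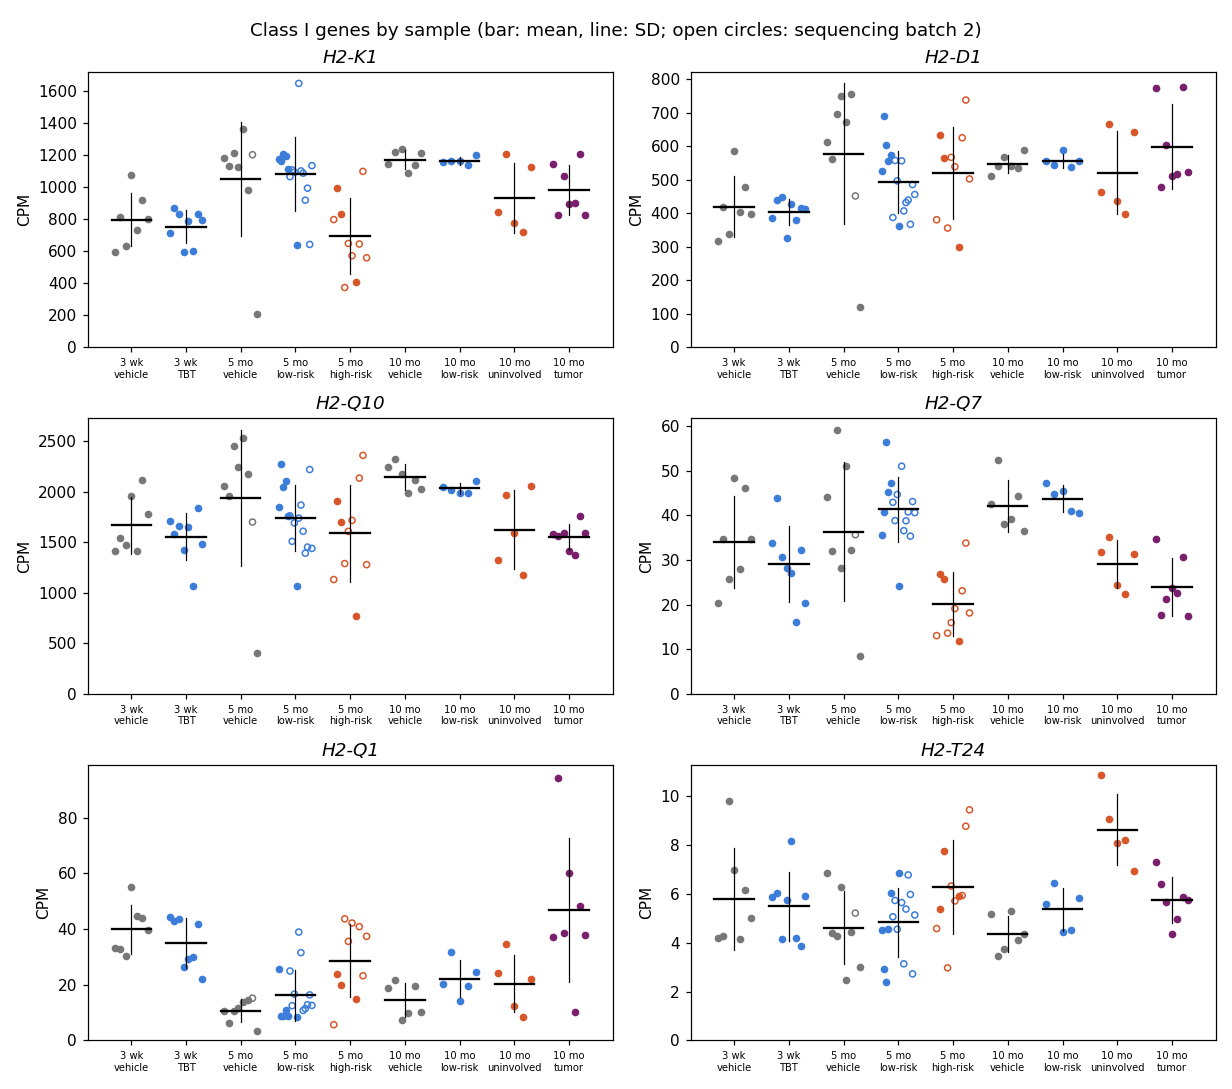
CPM of H2-K1, H2-D1, H2-Q10, H2-Q7, H2-Q1 and H2-T24 in each sample of 9 groups, drawn as for class II. H2-K1 and H2-Q7 are lower in 5-month high-risk than in low-risk livers (medians 647.4 against 1105 and 18.6 against 40.8 CPM), and the low point among 5-month vehicles is sample 9.

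Sequencing batch 2 held 10 low-risk, 7 high-risk and 1 vehicle liver of 5 months. Within batch 2 the log2 differences between high-risk and low-risk livers were 1.59 for H2-Aa, 1.47 for H2-Ab1, 1.61 for H2-Eb1, -0.67 for H2-K1 and -1.05 for H2-Q7. Within batch 1, with 3 high-risk and 6 low-risk livers, they were 1.28, 1.20, 1.17, -0.53 and -0.94 in the same order. The directions were thus the same in both batches for these 5 genes. H2-Q1 differed by 0.70 in batch 1 and 0.85 in batch 2 and passed in neither (edgeR adjusted p = 0.274 and 0.0761). By edgeR's adjusted p, 1 of 9 class II genes was called higher in batch 1 (H2-Aa, adjusted p = 0.0434), where 3.09% of 16465 genes were, and 7 of 7 in batch 2, where 18.2% of 13859 genes were. No class I gene passed in batch 1 and 3 did in batch 2, where 4.69% and 32.3% of all genes passed in either direction. Without low-risk 24, 8 class II and 5 class I genes were called, the same counts as with it. The share of all genes called in that fit was not worked out. The differences were 1.497 for H2-Aa and -0.66 for H2-K1 (edgeR adjusted p = 1.13e-06 and 0.0011).

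Genes that work with MHC molecules were compared from fixed lists. Of 5 class II processing genes, all were higher in high-risk than in low-risk livers by edgeR, among them the invariant chain Cd74 (log2 difference 1.41 ± 0.21, adjusted p = 2.83e-06) and the protease gene Ctss (1.14 ± 0.17, adjusted p = 2.92e-06). The class II coactivator Ciita rose by 1.34 ± 0.23 (edgeR adjusted p = 1.75e-05), from 3.44 CPM (median; 1.09 to 5.35) to 8.52 CPM (3.67 to 12.2). Nlrc5 had a difference of -0.03 ± 0.13 (edgeR adjusted p = 0.875). Ciita and Nlrc5 belong to a list of 9 MHC transcription regulators. Of these 2 rose and 1 fell, with a median of -0.03 against -0.01 for all genes. Of 9 class I peptide loading genes, none rose and 5 fell, including the chaperone genes Calr (by 0.85 on the log2 scale) and Pdia3 (by 0.77), while B2m, the shared light chain, differed by 0.02 ± 0.14 (edgeR adjusted p = 0.935). None of 5 immunoproteasome genes passed. Of 18 interferon-stimulated genes, 12 rose, with a median of 0.83.

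Most monocyte and macrophage, dendritic cell and cholangiocyte markers also rose in high-risk livers, and most B cell, Kupffer cell and hepatocyte markers did not. Of 8 monocyte and macrophage markers 7 rose, and their summed level ran from 140.7 to 298.6 CPM in low-risk and from 191.3 to 396.8 CPM in high-risk livers. Of 8 dendritic cell markers 6 rose (sums 8.25 to 23.4 against 15.4 to 34.2 CPM), of 6 B cell markers 1 rose (1.996 to 12.3 against 6.45 to 18.7 CPM), and of 5 cholangiocyte markers 4 rose (25.8 to 220.5 against 32.8 to 342.4 CPM). Of 7 Kupffer cell markers 2 rose and 2 fell (240.6 to 542.9 against 153.5 to 597.9 CPM). Hepatocyte markers fell in 4 of 6 cases (80420 to 178600 against 63550 to 172800 CPM). No defining marker of these cell types was at 0 in a whole group. Their part in the class II and class I differences was not tested.

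Against 5-month vehicle livers the pattern of high-risk livers was alike in direction, and this comparison shares the high-risk samples with the previous one. The vehicles were widely spread: H2-Aa ran from 13.6 CPM in vehicle 9 to 95.1 CPM in vehicle 6 (median 32.5, n = 8). Vehicle 6 also had the highest monocyte and macrophage marker sum of its group (432.5 CPM) and the highest cholangiocyte marker sum (272.1 CPM). High-risk livers were higher by 1.40 ± 0.27 in H2-Aa, 1.28 ± 0.31 in H2-Ab1 and 1.35 ± 0.32 in H2-Eb1 on the log2 scale (edgeR adjusted p = 0.000954, 0.00497 and 0.00497). H2-DMa also rose (0.85 ± 0.30, edgeR adjusted p = 0.0454), so that 4 of 8 class II genes tested were called, where 8.47% of all genes were called higher. Within batch 1 no class II gene passed, as no gene of 16465 did: the edgeR differences were 1.15 for H2-Aa (adjusted p = 0.153), 1.07 for H2-Ab1 and 0.97 for H2-Eb1. Batch 2 held 1 vehicle and gave no value. Against vehicles, 4 of 8 monocyte and macrophage markers, 3 of 8 dendritic cell markers and 3 of 5 cholangiocyte markers rose and 4 of 6 hepatocyte markers fell, and their part was not tested.

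In class I, H2-Q7 fell by 0.81 ± 0.20 (edgeR adjusted p = 0.00577), from a vehicle range of 8.39 to 59.2 CPM (median 33.9). H2-Q1 rose by 1.01 ± 0.33 (edgeR adjusted p = 0.0328), from 3.44 to 15.2 CPM (median 11.1), and missed the threshold without the libraries that stand apart (edgeR adjusted p = 0.0576). H2-K1, at 206.2 to 1365 CPM in vehicles (median 1157), differed by -0.57 ± 0.21 (edgeR adjusted p = 0.0546), and passed without those libraries (-0.49, adjusted p = 0.0305) or without low-risk 24, which enters the shared estimates of spread and batch (-0.58, adjusted p = 0.0368). Differences of H2-D1 (-0.02) and H2-Q10 (-0.23) did not pass. Of 18 class I genes, 2 were higher and 1 lower, where 8.47% and 7.38% of all genes were. When only these 2 groups were fitted, no class I gene and 2 class II genes were called, where 9.5% of 14087 genes were in either direction.

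No MHC gene was called between low-risk TBT livers and vehicles at 5 months. None of 18 class I and 8 class II genes was called by edgeR, as none of all 14773 genes was; DESeq2 called none of these members either, and at an unadjusted p under 0.05 there were 1 class I gene, 0 class II genes and 934 genes in all. The 95% intervals of the log2 difference were -0.56 to 0.38 for H2-Aa, -0.63 to 0.44 for H2-Ab1, -0.31 to 0.43 for H2-K1 and -0.46 to 0.19 for H2-D1. Leaving out low-risk 24 gave no class I or class II call here or in the test of the difference between ages.

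**Figure D3:**
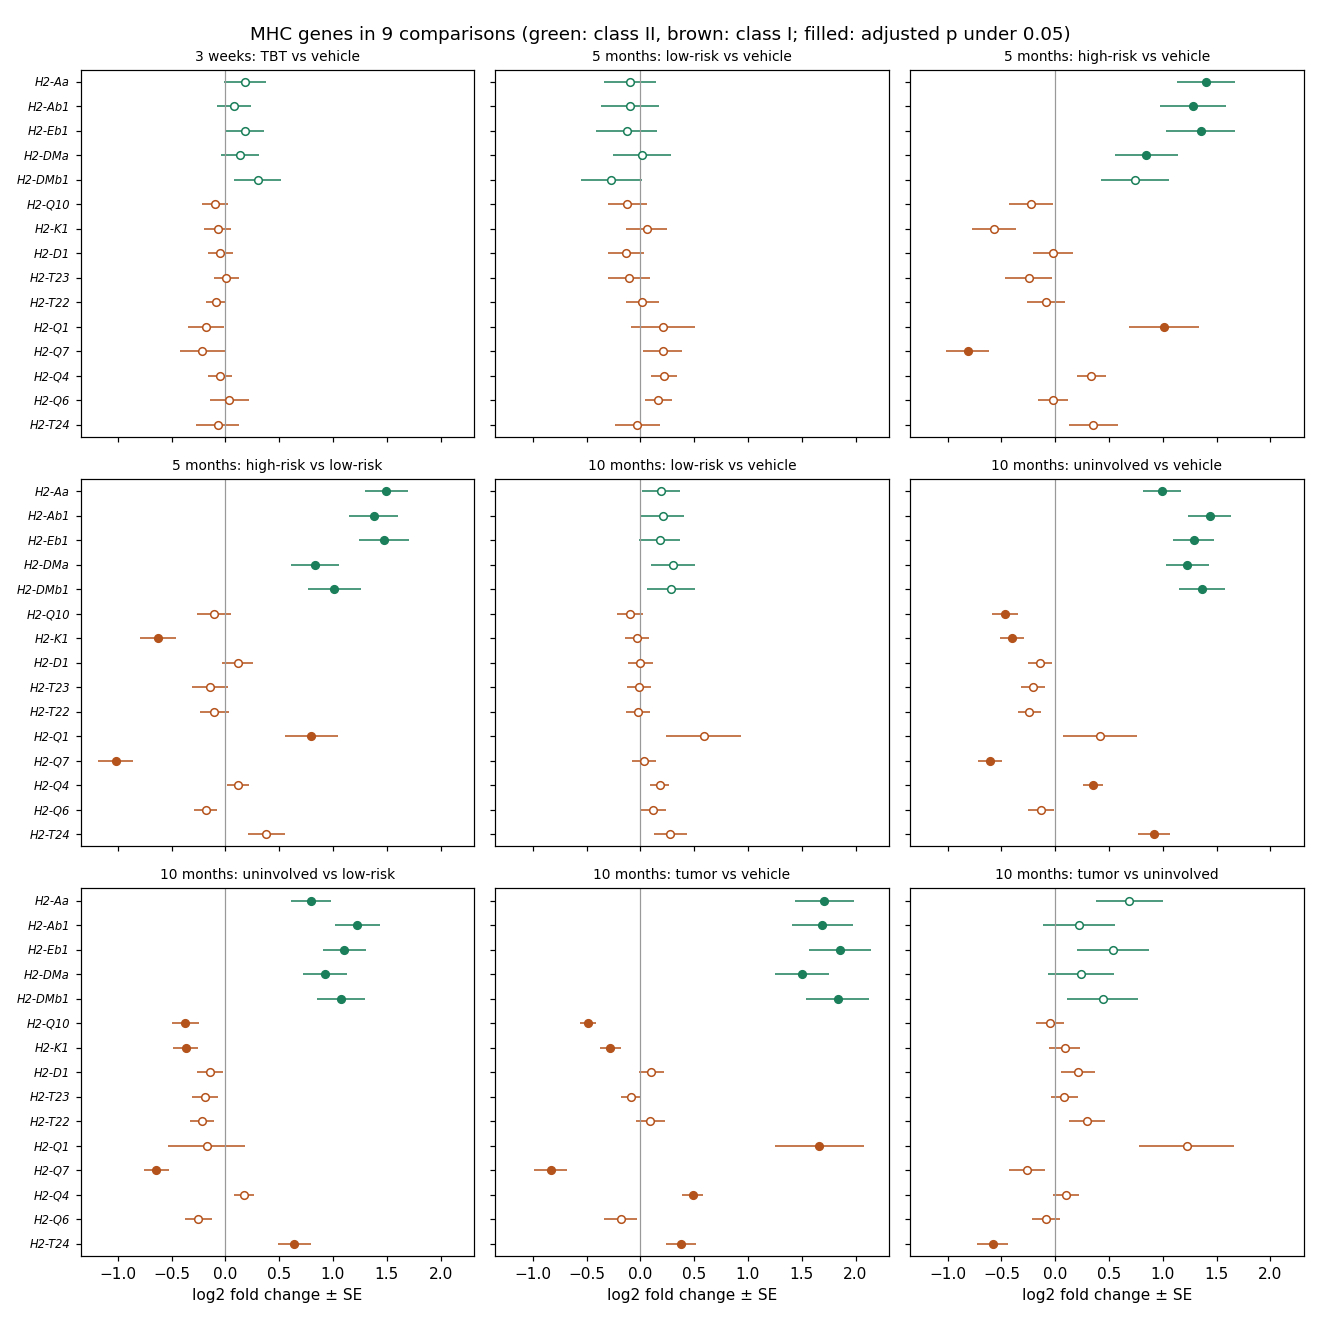
Log2 fold change and SE of the 15 MHC genes with a mean of 5 CPM or more in some group, in 9 comparisons (green: class II, brown: class I; filled: edgeR adjusted p under 0.05). Class II genes lie to the right in the high-risk comparisons, in uninvolved against low-risk or vehicle liver, and in tumor against vehicle liver. No class II gene is filled in tumor against uninvolved liver. No gene is filled in the 3-week and low-risk against vehicle comparisons.

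At 10 months the uninvolved liver of TBT mice carried more class II transcript than low-risk TBT liver. H2-Ab1 was 66.2, 99.0, 65.1, 43.2 and 124.5 CPM in uninvolved livers 1, 3 with 6, 5, 7 and 12, and 25.9, 29.7, 41.3, 31.2 and 35.7 CPM in the 5 low-risk livers. The groups did not overlap, and uninvolved 7 came closest to the low-risk range. The log2 difference was 1.23 ± 0.21 (edgeR adjusted p = 0.000167). H2-Eb1 was 48.6, 66.8, 45.7, 30.9 and 86.6 CPM in uninvolved and 18.6, 24.6, 29.3, 23.95 and 28.1 CPM in low-risk livers, again with no shared range, a difference of 1.11 ± 0.20 (edgeR adjusted p = 0.000235). H2-Aa was 64.6, 81.6, 60.2, 42.1 and 106.7 CPM against 30.2, 37.5, 48.5, 37.5 and 43.7 CPM. Uninvolved 7 lay inside the low-risk range of H2-Aa, and the difference was 0.79 ± 0.18 (edgeR adjusted p = 0.00194). The editor genes H2-DMb1 (3.41 to 9.56 against 2.25 to 3.98 CPM, 1.08 ± 0.22, edgeR adjusted p = 0.000828) and H2-DMa (4.66 to 12.3 against 3.77 to 5.49 CPM, 0.92 ± 0.21, edgeR adjusted p = 0.00139) rose too.

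Of 9 class II genes tested 7 were called higher, where 27.7% of all 16338 genes were, and 4 of 9 did not overlap, where 28.7% of all genes did not. The class II median was 1.03 against 0.05 for all genes. In class I, 4 genes were called higher and 3 lower of 18 tested, near the share of all genes (27.7% and 24.7%), and 4 of 18 did not overlap.

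The class I genes that fell were H2-Q7, H2-K1 and H2-Q10. H2-Q7 was 31.9, 35.2, 24.4, 22.4 and 31.3 CPM in uninvolved against 47.2, 44.8, 45.6, 40.9 and 40.5 CPM in low-risk livers, with no shared range, and fell by 0.64 ± 0.12 (edgeR adjusted p = 0.000259). H2-K1 was 846.9, 1205, 775.0, 718.9 and 1128 CPM against 1159, 1162, 1161, 1137 and 1204 CPM. The low-risk livers lay close together, and all uninvolved livers but 3 with 6 were below them. The difference was -0.37 ± 0.12 (edgeR adjusted p = 0.0142). H2-Q10 was 1326, 1973, 1596, 1182 and 2063 CPM against 2051, 2024, 1991, 1994 and 2112 CPM, a difference of -0.37 ± 0.13 (edgeR adjusted p = 0.0193) that missed the threshold without uninvolved 1 (-0.29, adjusted p = 0.055) or without uninvolved 7 (-0.27, adjusted p = 0.0523). H2-D1 differed by -0.14 ± 0.12 (edgeR adjusted p = 0.311).

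H2-T24, a class Ib gene of the T region, was 10.9, 9.07, 8.09, 8.23 and 6.96 CPM in uninvolved against 5.597, 6.47, 4.45, 4.52 and 5.82 CPM in low-risk livers. The groups did not overlap, and it rose by 0.64 ± 0.15 (edgeR adjusted p = 0.00223). The other class I genes called higher were H2-M2 (3.17), H2-T-ps (1.25) and H2-Q5 (0.60), all low in level and named after their values were seen.

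Against 10-month vehicles, which share the uninvolved samples with the comparison above, 9 of 9 class II genes were called higher (31.2% of all genes were, and 57.7% in either direction) and 7 of 9 did not overlap (30% of all genes did not). H2-Ab1 ran from 24.3 to 34.9 CPM in vehicles (median 27.3, n = 6) and differed by 1.44 ± 0.20 (edgeR adjusted p = 1.59e-05). H2-Eb1 ran from 19.4 to 25.8 CPM (median 21.6) and differed by 1.28 ± 0.19 (edgeR adjusted p = 2.48e-05). H2-Aa ran from 29.1 to 40.6 CPM (median 33.8) and differed by 0.99 ± 0.18 (edgeR adjusted p = 0.000159). H2-DMb1 rose by 1.36 ± 0.22 (edgeR adjusted p = 5.14e-05). All uninvolved values of these 3 chains were above the vehicle range. In class I, 6 genes were higher and 3 lower of 18, with 31.2% and 26.5% of all genes. H2-T24 rose by 0.92 ± 0.15 and H2-Q4 by 0.35 ± 0.09, and H2-Q7 fell by 0.61 ± 0.11, H2-Q10 by 0.47 ± 0.12 and H2-K1 by 0.40 ± 0.11 (edgeR adjusted p = 5.39e-05, 0.00349, 0.000218, 0.00325 and 0.00623). H2-D1 differed by -0.14 ± 0.11 (edgeR adjusted p = 0.286). With the vehicle library labelled tumor counted as a vehicle, H2-Q7, H2-Q10 and H2-K1 were no longer called (edgeR adjusted p = 0.0964, 0.0935 and 0.312); its H2-K1 level was 395.8 CPM, and leaving it in moved the H2-K1 difference to -0.27.

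Between low-risk and vehicle livers of 10 months no MHC gene was called by edgeR or by DESeq2, as no gene of 16338 was by edgeR, and at an unadjusted p under 0.05 there were 1 class I gene, 1 class II gene and 688 genes in all. The differences were 0.20 for H2-Aa (95% interval -0.15 to 0.54), 0.21 for H2-Ab1 (-0.18 to 0.60), 0.18 for H2-Eb1 (-0.19 to 0.55), -0.03 for H2-K1 (-0.25 to 0.19), 0.00 for H2-D1 (-0.22 to 0.22) and -0.10 for H2-Q10 (-0.33 to 0.14). For the class Ia genes and H2-Q10 these intervals are narrower than at 5 months.

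The class II coactivator Ciita rose with the class II genes at 10 months too, by 1.05 ± 0.16 against low-risk and 1.26 ± 0.16 against vehicle livers (edgeR adjusted p = 6.13e-05 and 4.14e-06). Of 5 class II processing genes, 3 rose against low-risk and 5 against vehicle livers, Cd74 by 1.16 ± 0.23 and 1.39 ± 0.22 (edgeR adjusted p = 0.000559 and 5.31e-05). Of 9 class I peptide loading genes, 1 rose and 4 fell against low-risk livers: B2m rose by 0.32 ± 0.10 (edgeR adjusted p = 0.0122) and Pdia3 fell by 0.72 ± 0.16 (edgeR adjusted p = 0.00112). Nlrc5 differed by -0.09 ± 0.13 (edgeR adjusted p = 0.55). Of the 9 MHC transcription regulators, 4 rose against low-risk and 6 against vehicle livers, and none fell. Of 18 interferon-stimulated genes, 13 rose against low-risk and 14 against vehicle livers.

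Dendritic cell markers summed to 25.3 to 27.2 CPM in uninvolved and 16.5 to 19.5 CPM in low-risk livers, with no shared range, and 6 of 8 rose. Monocyte and macrophage markers summed to 157.3 to 340.0 against 176.0 to 233.2 CPM, with 5 of 8 higher and 1 lower, the lowest sum being that of uninvolved 7. Cholangiocyte markers summed to 106.6 to 217.1 against 38.5 to 59.7 CPM, and 5 of 5 rose. Kupffer cell markers summed to 176.1 to 407.1 against 350.0 to 427.8 CPM, and 5 of 7 fell. Hepatocyte markers fell in 5 of 6 cases (76090 to 108400 against 121400 to 127500 CPM). No defining marker of these types was at 0 in a whole group. The uninvolved libraries also stood apart in other ways: their mitochondrial share was 4.20% to 5.85%, against 2.94% to 3.08% in low-risk, 3.14% to 3.83% in vehicle and 2.64% to 3.46% in tumor libraries. They had 24676 to 28715 genes detected, against 21663 to 22578, 21078 to 22006 and 22609 to 23868. In the same order their libraries were deeper, at 34.8 to 44.6 M counts against 26.4 to 33.5, 26.2 to 31.0 and 22.5 to 27.9 M. The summed sample 3 with 6 held 76.2 M counts, and genes detected can depend on depth. None of these ranges overlapped with that of the uninvolved libraries, so these measures and the uninvolved group cannot be told apart, here or in the tumor comparison. The part of the markers in the MHC differences was not tested.

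Whether the difference between high-risk and low-risk livers differed with age was tested with an interaction term, taking uninvolved against low-risk liver as the 10-month contrast. No member was called by edgeR or DESeq2, where 0.448% of 16084 genes were by edgeR; at an unadjusted p under 0.05 there were 1 class I and 2 class II genes. The 10-month contrast minus the 5-month contrast was -0.69 for H2-Aa (95% interval -1.31 to -0.07, edgeR adjusted p = 0.375), -0.14 for H2-Ab1 (-0.89 to 0.61), -0.35 for H2-Eb1 (-1.07 to 0.36), 0.26 for H2-K1 (-0.26 to 0.77), -0.25 for H2-D1 (-0.69 to 0.18) and -0.26 for H2-Q10 (-0.76 to 0.23).

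In the main fit, which did not pair samples, no class II gene was called between tumor and uninvolved liver. In this group 1 tumor stood far above the others. H2-Aa ran from 67.4 to 252.1 CPM in tumors (median 90.4, n = 7), H2-Ab1 from 51.3 to 206.1 CPM (median 69.5) and H2-Eb1 from 45.9 to 185.7 CPM (median 59.5). Tumor 11 was the highest for each, and its monocyte and macrophage marker sum (451.2 CPM) and cholangiocyte marker sum (800.9 CPM) were also the highest of the tumors. Against uninvolved liver the differences were 0.69 ± 0.31 for H2-Aa, 0.22 ± 0.33 for H2-Ab1 and 0.54 ± 0.34 for H2-Eb1 (edgeR adjusted p = 0.133, 0.66 and 0.276), and no class II gene of 9 was called by edgeR or DESeq2, with 1 at an unadjusted p under 0.05. Without tumor 11 they were 0.37, -0.10 and 0.19. Some tumor and uninvolved samples carry the same number. With the number as a replicate block over the 4 pairs without 3 and 6, H2-Aa was called (0.53, edgeR adjusted p = 0.0335), and over 6 pairs it was not (0.37, adjusted p = 0.0768). H2-Aa was also called, without a block, when all 10-month groups were fitted together (0.735, edgeR adjusted p = 0.0358).

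In class I, 2 of 18 genes were lower in tumor than in uninvolved liver and none higher, where 10.5% and 7.55% of all 16362 genes were. H2-T24 was 7.32, 6.43, 5.66, 4.38, 4.96, 5.87 and 5.76 CPM in tumors 1, 3, 5, 6, 7, 11 and 12, and fell by 0.58 ± 0.14 from uninvolved liver (edgeR adjusted p = 0.0164; 0.0588 without uninvolved 1, which left no class I gene called). Only tumor 1 exceeded the lowest uninvolved value of H2-T24. The other, H2-Bl, named after its values were seen, fell by 0.59 and was the 1 class I gene without overlap (7% of all genes had none). H2-K1 differed by 0.09 ± 0.14, H2-D1 by 0.21 ± 0.16 and H2-Q10 by -0.05 ± 0.13 (edgeR adjusted p = 0.691, 0.354 and 0.799). The light chain B2m fell by 0.44 ± 0.12 (edgeR adjusted p = 0.0206).

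Against vehicle liver the tumors had 9 of 9 class II genes higher (24.8% of all 15293 genes were), and 7 of 9 did not overlap (19.4% of all genes did not). The log2 differences were 1.85 ± 0.29 for H2-Eb1, 1.71 ± 0.27 for H2-Aa and 1.69 ± 0.28 for H2-Ab1 (edgeR adjusted p = 2e-04, 0.000237 and 0.000341), and 1.52, 1.40 and 1.38 without tumor 11. H2-DMb1 rose by 1.83 ± 0.29 (edgeR adjusted p = 0.000182). Of 18 class I genes, 6 were higher and 3 lower (24.8% and 21% of all genes). H2-Q1 ran from 10.2 to 94.4 CPM in tumors (median 38.7) and from 7.36 to 21.9 CPM in vehicles (median 14.4), overlapping only through tumor 7, and rose by 1.66 ± 0.41 (edgeR adjusted p = 0.00504). H2-Q4 rose by 0.49 ± 0.10 (26.9 to 40.3 against 20.3 to 24.7 CPM, no overlap; edgeR adjusted p = 0.000962), and H2-T24 by 0.38 ± 0.14 (edgeR adjusted p = 0.0353; 0.0731 without tumor 1 and 0.062 without tumor 3). H2-T24 also missed the threshold with no filter on low counts (edgeR adjusted p = 0.0632). With the vehicle library labelled tumor counted as a vehicle, H2-T24 differed by 0.23 (edgeR adjusted p = 0.298).

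H2-Q7 ran from 17.4 to 34.8 CPM in tumors and from 36.5 to 52.4 CPM in vehicles, and fell by 0.83 ± 0.15 (edgeR adjusted p = 0.000427). H2-Q10 ran from 1373 to 1762 against 1985 to 2324 CPM and fell by 0.49 ± 0.08 (edgeR adjusted p = 0.00017). Neither overlapped between the groups. H2-K1 ran from 824.7 to 1208 against 1090 to 1236 CPM and fell by 0.28 ± 0.10 (edgeR adjusted p = 0.0303), but missed the threshold without tumor 3, 6, 7 or 12 (edgeR adjusted p = 0.0675, 0.0619, 0.0546 and 0.0636). With the vehicle library labelled tumor counted as a vehicle, H2-K1 differed by -0.19 (edgeR adjusted p = 0.483). H2-D1 differed by 0.10 ± 0.11 (edgeR adjusted p = 0.484). Of the genes that make peptides for class I, the immunoproteasome list had 3 of 5 higher. Of 9 class I peptide loading genes 1 was higher and 2 were lower, with a median of -0.17 against -0.01 for all genes. Of 18 interferon-stimulated genes 16 were higher, with a median of 1.71, and Ciita rose by 1.57 ± 0.23 (edgeR adjusted p = 0.000104). Of the 9 MHC transcription regulators 3 rose and 1 fell. Monocyte and macrophage markers (6 of 8), dendritic cell markers (6 of 8), cholangiocyte markers (5 of 5), NK cell markers (3 of 3), T cell markers (4 of 6) and B cell markers (2 of 6) rose and hepatocyte markers (5 of 6) fell. Of 6 sinusoidal endothelium markers 2 rose and 4 fell, of 7 Kupffer cell markers 2 rose and 3 fell, and of 6 stellate cell markers 3 rose and 1 fell. Of 3 neutrophil markers 1 rose, and 0 of 2 plasma cell markers passed. The part of these cell types was not tested.

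Class II genes also differed with age in vehicle livers of batch 1. H2-Aa ran from 11.4 to 27.9 CPM at 3 weeks (median 14.7, n = 7) and from 13.6 to 95.1 CPM at 5 months (median 33.2, n = 7), a log2 difference of 1.48 ± 0.26 (edgeR adjusted p = 0.000236). H2-Ab1 started from 12.8 to 24.9 CPM (median 14.4) and rose by 1.40 ± 0.25, and H2-Eb1 from 8.41 to 17.3 CPM (median 10.5) and rose by 1.54 ± 0.27 (edgeR adjusted p = 0.000236 and 0.000284). All 3 ranges overlapped between the ages. With H2-DMb1 (1.06 ± 0.26, edgeR adjusted p = 0.0046), 4 of 7 class II genes were called higher, where 11.9% of 14962 genes were, and 24.2% were called in either direction. Ciita rose by 1.20 ± 0.32 and Cd74 by 1.28 ± 0.21 (edgeR adjusted p = 0.00756 and 0.00011). Of the 9 MHC transcription regulators 4 rose and none fell, and of 5 class II processing genes 1 rose and 1 fell. Monocyte and macrophage markers did not move in 1 direction (2 higher and 2 lower of 8). Sinusoidal endothelium markers fell in 6 of 6 cases, Kupffer cell and stellate cell markers in 4 of 7 and 4 of 6, B cell markers in 2 of 6 and hepatocyte markers in 1 of 6. Of 7 dendritic cell markers 1 rose and 1 fell, and 1 of 5 cholangiocyte and 1 of 2 plasma cell markers rose. The part of these cell types was not tested.

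H2-Q1 went the other way: it ran from 30.3 to 55.0 CPM at 3 weeks (median 39.5) and from 3.44 to 14.6 CPM at 5 months, without overlap (5.84% of all genes had none), and fell by 1.94 ± 0.23 (edgeR adjusted p = 2.37e-06). H2-T22 rose by 0.37 ± 0.13 (edgeR adjusted p = 0.0473) and missed the threshold with no filter on low counts (edgeR adjusted p = 0.212). H2-K2, under 5 CPM and named after its values were seen, fell by 1.03, so 1 of 17 class I genes was called higher and 2 lower (11.9% and 12.3% of all genes). H2-K1 (0.35), H2-D1 (0.49) and H2-Q10 (0.22) did not pass by edgeR (adjusted p = 0.178, 0.0543 and 0.394). Without 5-month vehicle 9 they were 0.49, 0.63 and 0.36 and were called, and 9 class I genes passed in place of 3, where 39.3% of all genes passed in place of 24.2%. H2-D1 also passed with RLE scaling (0.50, edgeR adjusted p = 0.0436) and with DESeq2 (0.50, adjusted p = 0.0195). Without 3-week vehicle 4 it passed as well (0.58, edgeR adjusted p = 0.0259). From 5 to 10 months no class II gene of vehicle liver was called by edgeR or DESeq2 (3 at an unadjusted p under 0.05; H2-Ab1 -0.63 ± 0.25, adjusted p = 0.094; H2-Aa -0.40; H2-Eb1 -0.58), and 1 of 17 class I genes, H2-K2, was higher (0.81), where 6.68% of all genes were and 7.41% were lower; no member was without overlap, as 4.49% of all genes were. H2-K1 (0.17), H2-D1 (-0.14) and H2-Q10 (0.10) did not pass.

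At 3 weeks no MHC gene was called between TBT and vehicle livers. None of 16 class I and 7 class II genes was called by edgeR or DESeq2, as none of 14050 genes was by edgeR, and no member had an unadjusted p under 0.05, against 474 genes in all. No member was without overlap, as 0.0285% of all genes were. In TBT livers H2-Aa ran from 10.8 to 27.3 CPM (median 17.1, n = 8), H2-K1 from 595.5 to 869.3 CPM (median 794.5) and H2-Q10 from 1073 to 1845 CPM (median 1616). In vehicle livers H2-K1 ran from 598.3 to 1078 CPM and H2-Q10 from 1411 to 2118 CPM. The log2 differences were 0.18 for H2-Aa (95% interval -0.20 to 0.57), 0.08 for H2-Ab1 (-0.22 to 0.39), 0.18 for H2-Eb1 (-0.17 to 0.53), -0.07 for H2-K1 (-0.32 to 0.18), -0.05 for H2-D1 (-0.28 to 0.18) and -0.10 for H2-Q10 (-0.34 to 0.14). Leaving out TBT 4 gave no call.

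Across the 57 samples of 5 and 10 months, which share groups and differ in depth, the class II genes varied together. The correlation of log2 CPM with H2-Ab1 was 0.98 for H2-Eb1, 0.97 for H2-Aa, 0.92 for H2-DMa and 0.87 for H2-DMb1. Among 9740 genes, the 5 nonmembers most like H2-Ab1 were Cd74 (0.969), Myo1f (0.871), Cxcl16 (0.871), Map3k14 (0.868) and Tmem43 (0.866). Class I genes differed in this: with H2-Ab1 the correlation was 0.59 for H2-Q4, 0.55 for H2-Q1 and 0.46 for H2-D1, but 0.12 for H2-Q10, 0.08 for H2-Q6, -0.05 for H2-K1 and -0.30 for H2-Q7. H2-K1 had 0.83 with H2-Q7, 0.77 with H2-Q10 and 0.72 with H2-D1. H2-D1 was closest to H2-T22 (0.91), H2-Q1 had 0.59 with H2-Aa, and H2-Q7 had -0.37 with H2-Aa. With the summed markers, H2-Ab1 had 0.80 for monocytes and macrophages, 0.85 for cholangiocytes, 0.62 for dendritic cells, -0.01 for Kupffer cells and -0.33 for hepatocytes, and H2-K1 had 0.13, -0.22, -0.38, 0.68 and 0.71. The cholangiocyte list includes Spp1, which alone had 0.861 with H2-Ab1, and its part in that sum was not tested. These are descriptions over samples that the groups themselves set apart. The samples include vehicle 9 of 5 months, the shallowest library. It was the lowest of the 57 in H2-K1 (206.2 CPM), in the Kupffer cell sum (87.8 CPM) and in the hepatocyte sum (39730 CPM). Correlations without it were not worked out.

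**Figure D4:**
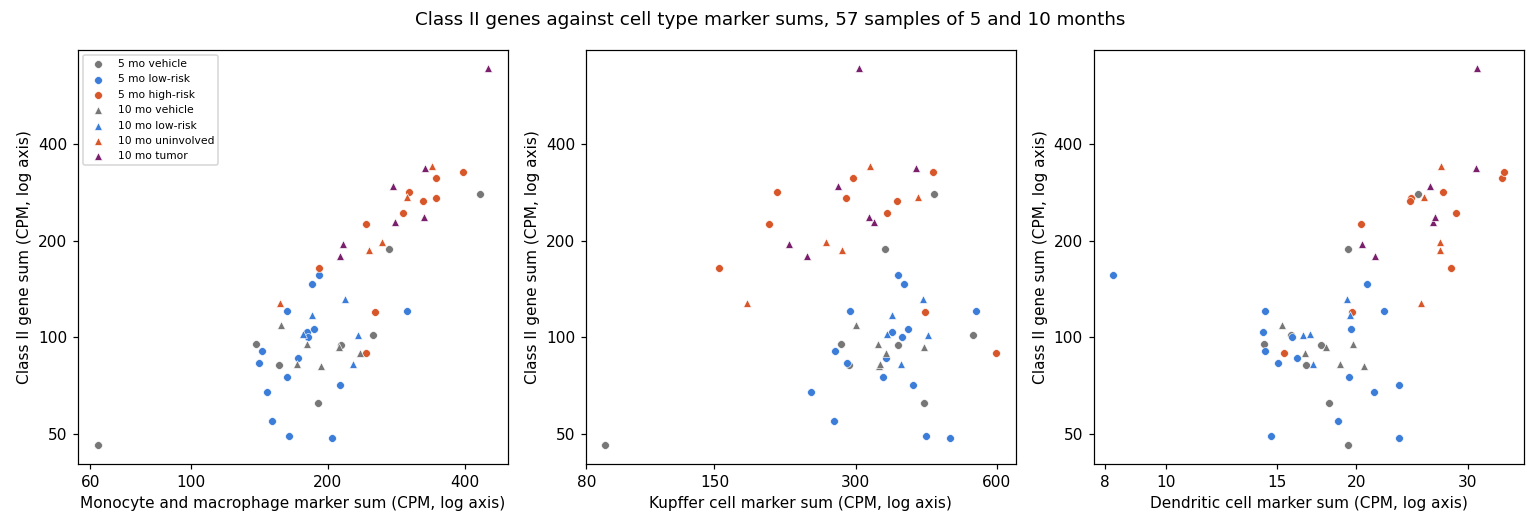
Summed CPM of the 12 class II genes against the summed CPM of monocyte and macrophage, Kupffer cell and dendritic cell markers, 1 point for each of 57 samples, log axes (colors and shapes: group and age). Class II sums follow the monocyte and macrophage sum but not the Kupffer cell sum (correlations of H2-Ab1 with these sums 0.80 and -0.01).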

How the data were processed

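TruSeq Stranded Total RNA libraries were prepared from DNase-treated liver RNA purified on RNeasy columns, per the labels' protocols. The submitters' processing notes name Trim Galore, HISAT2, featureCounts and the mm10 build, without versions or roles. The authors deposited 1 table of counts per gene for 75 libraries, adjusted with ComBat-seq by its name, so batch differences may already be reduced. Strand setting, read length and annotation are not given in the sources used here. All 55536 gene IDs matched GENCODE M21 (GRCm38), which gave exon lengths. Promoter windows came from RefSeq.

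The 2 libraries of 3-week vehicle 3 share a number and were summed, although their counts were not close. Their median ratio of chi-square to sampling noise was 34.2, rank 219 of 310 pairs within groups. Uninvolved 3 and 6 were summed because their counts were the closest of 310 pairs within groups (median ratio of chi-square to sampling noise 1.44, next pair 4.73), which gave 73 samples. Tests used edgeR 4.0.16 (R 4.3.3; TMM, filterByExpr, robust quasi-likelihood fit, Benjamini-Hochberg adjustment over all genes tested, threshold 0.05), and the 5-month fit and the interaction fit included the sequencing batch; the age fit used batch 1 vehicles only. SEs are the log2 fold change divided by the square root of F, and 95% intervals are 1.96 SEs on each side. Levels are CPM of TMM-scaled libraries over all 73 samples. DESeq2 1.42.0, other scalings, no filter, other fits and left-out samples were alternatives, and the tests were checked on simulated data.

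Levels are given for members with a mean of at least 5 CPM in a group. Folds are given for called ones, up to 3 higher and 3 lower per class, and always for H2-K1, H2-D1, H2-Q10, H2-Aa, H2-Ab1 and H2-Eb1; folds of H2-DMa and H2-DMb1 beyond this were added after their values were seen. The members, marker lists and pathway lists were chosen with earlier results of these data known, so their counts are descriptions. Tumor and uninvolved samples whose titles carry the same code were read as 1 mouse; the correlations of their deviations from the group means were 0.02, -0.04, -0.01, -0.26, 0.64 and 0.06 for numbers 1, 3, 5, 6, 7 and 12.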

Additional observations from a re-analysis of the deposited data

Results flagged for a closer look

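In 120 sets of values of 1 gene in 1 group of 4 to 10 samples, 14 held a sample whose gap to its nearest neighbor was large for the range of the group (Dixon's criterion at the 95% level). Chance gives about 1 set in 20, and the 14 came from 4 samples.

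Tumor 11 was the highest of 7 tumors for all 5 class II genes with a named level: 252.1 CPM of H2-Aa (next 121.6), 206.1 CPM of H2-Ab1 (next 103.0), 185.7 CPM of H2-Eb1 (next 85.0), 20.7 CPM of H2-DMa (next 10.7) and 19.6 CPM of H2-DMb1 (next 11.01). Vehicle 4 of 3 weeks was the highest of 7 for 4 of them: 27.9 CPM of H2-Aa (next 15.1), 24.9 CPM of H2-Ab1 (next 17.8), 17.3 CPM of H2-Eb1 (next 11.3) and 3.14 CPM of H2-DMb1 (next 1.90).

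Vehicle 9 of 5 months, the shallowest library, was the lowest of 8 for 4 class I genes: 407.4 CPM of H2-Q10 (next 1702), 206.2 CPM of H2-K1 (next 982.9), 30.4 CPM of H2-T23 (next 192.9) and 15.1 CPM of H2-T22 (next 59.0). Vehicle 4 of 10 months was the highest of 6 for H2-T23, at 232.7 CPM (next 200.2).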

How the results depend on the processing

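Of 91 gene results 44 were called. Over 572 alternatives of the called ones, 539 kept direction and call, 33 lost the call and 0 changed sign. Over 479 alternatives of the others, 12 gained a call and 27 changed sign. Counts of called members moved as follows, and the cause was not tested where samples and genes stayed the same. Shares of all genes are given above for each batch, for high-risk against vehicle with only those groups, and for vehicle ages without the libraries that stand apart. For the other settings they were not worked out. There a change in member counts cannot be told apart from a change in calls over all genes. High-risk against low-risk: class I 0 in batch 1 and 3 in batch 2, class II 1 in batch 1. High-risk against vehicle: class I 6 with DESeq2, 0 in batch 1 and 0 with only those groups; class II 0 in batch 1 and 2 with only those groups. Uninvolved against vehicle: class I 4 with the vehicle labelled tumor. Tumor against uninvolved: class I 1 with no filter, 5 with all 10-month groups fitted and 0 to 4 with 1 sample left out (0 without uninvolved 1; 1 without uninvolved 5 or 7 or without tumor 1, 3, 5, 6 or 11; 3 without tumor 7; 4 without uninvolved 3 with 6); class II 1 with all 10-month groups. Vehicles at 10 against 5 months: class I 0 with no filter and 2 with DESeq2. Vehicles at 5 months against 3 weeks: class I 5 with DESeq2 and 9 without the libraries that stand apart.

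With the sample number as a replicate block, tumor against uninvolved class II counts were 0 over 6 pairs and 1 over the 4 pairs without 3 and 6; H2-Ab1 became -0.11 over 6 pairs, H2-Q10 0.029 over 4. Uninvolved 3 and 6 share near-identical counts, so the 6 pairs are not independent. A replicate block at 3 weeks, where a number ties no samples by label, left both counts at 0; it and the fits without 3-week vehicle 4 or 5-month low-risk 24 were chosen after seeing the data.

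Sign changes were as follows. At 3 weeks: H2-K1 0.012 without vehicle 4, H2-D1 0.047 without vehicle 4 and 0.002 with the libraries of vehicle 3 apart. High-risk against low-risk: H2-D1 -0.14 in batch 1, H2-Q10 0.002 in batch 2. High-risk against vehicle: H2-D1 0.009 with RLE, 0.008 with DESeq2 and 0.061 without the libraries that stand apart. Low-risk against vehicle at 10 months: H2-D1 -0.009 with RLE and with DESeq2 and from -0.024 to 0.012 with 1 sample left out (-0.002, -0.004 or -0.005 in 7 cases); with the vehicle labelled tumor, H2-K1 0.11, H2-Q10 0.008 and H2-Eb1 -0.043. Tumor against uninvolved: H2-Q10 0.005 without uninvolved 3 with 6 and 0.049 without 12, H2-Ab1 -0.099 without tumor 11 and up to 0.442 (without uninvolved 12). Vehicles at 10 against 5 months: H2-Q10 -0.027 without the libraries that stand apart. The shallowest library, at 2.83 M counts, limits members under 1 CPM to about 3 reads.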

Other observations

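Lymphoid and stromal marker lists gave these counts. Between high-risk and low-risk livers of 5 months, 4 of 6 T cell markers tested were higher and 1 lower, 2 of 2 plasma cell markers were higher, 1 of 2 NK cell markers was higher, 4 of 6 stellate cell markers were higher and 1 lower, 1 of 6 sinusoidal endothelium markers was higher and 4 lower, and 1 of 3 neutrophil markers was higher. Between uninvolved and low-risk livers of 10 months, 5 of 7 T cell markers were higher, 0 of 2 plasma cell markers passed, 2 of 2 NK cell markers were higher, 4 of 6 stellate cell markers were higher and 1 lower, 1 of 6 endothelial markers was higher and 2 lower, and 1 of 3 neutrophil markers was higher and 1 lower, with Ly6g at 0 counts in both groups. In low-risk against vehicle livers none of these markers passed by edgeR at either age.

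The vehicle library labelled tumor, the only one of its kind, had 59.4 CPM of H2-Aa, 50.1 CPM of H2-Ab1 and 45.5 CPM of H2-Eb1, above the 10-month vehicle range for each. Its class I values were 395.8 CPM of H2-K1, 297.4 CPM of H2-D1, 1046 CPM of H2-Q10 and 12.3 CPM of H2-Q7, below the vehicle range for each, at 11.5 M counts. It also stood apart by its mitochondrial share, and with 1 library there is no replicate check.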
